A study of Homo sapiens with 6 samples.

Results

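The genes described here are 38 genes of cystine import, glutathione, the NRF2 antioxidant programme, NADPH supply, iron handling and ferroptosis, taken by symbol from a fixed list out of the 38637 genes of the deposited expression table. All 38 were found and all 38 had a mean of at least 1 TPM, so they are among the 13980 genes that were tested. HCCLM3-SR is a sorafenib-resistant line that the study derived from the human hepatocellular carcinoma (HCC) line HCCLM3 by slowly raising the dose of sorafenib, a multikinase inhibitor. Under 5 µM sorafenib, 3 libraries came from cells transfected for 3 days with siRNA against the circular RNA cDCBLD2 (si_circRNA, genotype cDCBLD2 knockdown) and 3 came from cells transfected with control siRNA. Every library therefore came from the same resistant line with drug present, and none from untreated or parental cells. PolyA-Seq, the sequencing of polyadenylated RNA, asked which mRNAs change when cDCBLD2 is lowered.

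NRF2, the product of NFE2L2, is a transcription factor that KEAP1 holds in check by handing it to a ubiquitin ligase; on oxidative or electrophilic stress NRF2 escapes, binds antioxidant response elements (AREs) with a small MAF partner and switches on glutathione, thioredoxin and NADPH genes. Glutathione is built from cystine, which the SLC7A11/SLC3A2 exchanger brings into the cell, and GPX4 uses it to reduce lipid hydroperoxides in membranes. Ferroptosis is the iron-dependent death that follows when these peroxides are not removed, and sorafenib has been studied in liver cancer as a drug that interferes with cystine uptake.

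Short sequences tie these genes to their best-known regulators and are shown here because they group the members whose values follow. The first is the ARE core, written TGACNNNGC and searched on both strands of RefSeq promoters of GRCh38.p14, from 250 bases before to 50 bases after each start. Promoters were found for 29 of the 38 genes, and those of AKR1B10, FTH1, GSR, GSS, HMOX1, PRDX1, PRDX6, SLC39A14 and SLC7A11 were not searched here. The letters occurred in 7 of these 29 (24.1%) against 3702 of all 27305 promoters (13.6%), and the fuller form TGACTCAGC occurred in 3 of 29 (10.3%) against 154 of 27305 (0.564%). The fuller form is contained in the core, so every match to it is also a match to the core. Below, capitals mark the core, each line runs 5′ to 3′ on the strand named, and the distance is from the start that RefSeq gives the promoter to the first base of the match along the gene. The gene spans given with the values are those of GENCODE, which can begin elsewhere, and the stretches of SLC3A2, AIFM2 and GPX2 lie inside them. PGD also had a match, and ME1 and TXNRD1 had a further one each, none of them printed here. A match is a description of the letters and does not show that NRF2 binds there.
AIFM2, chr10:70132829-70132857, plus strand, 22 bases upstream: gggcggggcgTGACTCAGCactcgtgctg
SLC3A2, chr11:62881652-62881680, plus strand, 37 bases upstream: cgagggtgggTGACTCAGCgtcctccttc
ME1, chr6:83431170-83431198, minus strand, 137 bases upstream: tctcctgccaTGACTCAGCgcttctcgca
GCLM, chr1:93909446-93909474, plus strand, 34 bases upstream: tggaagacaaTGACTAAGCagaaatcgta
GPX2, chr14:64942849-64942877, plus strand, 122 bases upstream: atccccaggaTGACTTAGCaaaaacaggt
TXNRD1, chr12:104215670-104215698, plus strand, 99 bases upstream: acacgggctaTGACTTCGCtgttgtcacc

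The second is the iron-responsive element (IRE), an RNA hairpin bound by iron regulatory proteins when iron is scarce, which holds back translation from a 5′ UTR and protects the mRNA from decay in a 3′ UTR. It was searched as C, 5 bases, the loop CAGTG with A, C or T after it, and 5 bases able to pair with the first 5, in GENCODE release 29 transcripts on GRCh38. A match stood in the 5′ UTR of 15 of 18737 genes (0.0801%) and in the 3′ UTR of 96 of 19046 genes (0.504%). FTH1, FTL and SLC40A1 had 1 each in the 5′ UTR and TFRC had 4 in the 3′ UTR. As with the ARE, a match describes the letters, and it does not show that a protein binds there. Capitals mark the unpaired C and the loop.
FTH1 5′ UTR, chr11:61967573-61967602, minus strand: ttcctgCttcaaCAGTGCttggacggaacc
FTL 5′ UTR, chr19:48965335-48965364, plus strand: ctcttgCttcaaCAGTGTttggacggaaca
SLC40A1 5′ UTR, chr2:189580660-189580689, minus strand: caacttCagctaCAGTGTtagctaagtttg
TFRC 3′ UTR, chr3:196050978-196051007, minus strand: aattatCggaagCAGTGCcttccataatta
TFRC 3′ UTR, chr3:196050574-196050603, minus strand: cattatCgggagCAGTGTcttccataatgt
TFRC 3′ UTR, chr3:196050509-196050538, minus strand: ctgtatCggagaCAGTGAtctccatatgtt
TFRC 3′ UTR, chr3:196050462-196050491, minus strand: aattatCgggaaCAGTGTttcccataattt

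The values are TPM, a level per length of transcript that has the same total in every library, so that levels of different genes may be set side by side. A fold change is the knockdown minus the control mean of log2(TPM + 1), and the test was limma's moderated test over all 13980 genes with Benjamini-Hochberg adjustment, called at an adjusted p under 0.05. Between 17492673 and 23064302 reads per library could be recovered from the values, which are lower bounds. Same-numbered libraries of the groups deviated from their means in step (correlation 0.56, 0.34 and 0.36 for numbers 1, 2 and 3), and replicate 1 stood apart from replicates 2 and 3 in both groups. The correlation was also 0.25 for knockdown 3 with control 2 and 0.21 for knockdown 2 with control 3. The values thus set number 1 apart more clearly than they pair numbers 2 and 3. A further limma fit carried the replicate number as a block, and the text gives the blocked adjusted p of this fit beside the unblocked adjusted p of the first. The labels do not say whether the libraries came from separate cultures, so the p-values measure the spread between these libraries, which may be technical.

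DCBLD2, the host gene of cDCBLD2, was at 38.5 ± 17.2 TPM after knockdown and 56.9 ± 12.7 TPM in control cells (mean ± SD, n = 3, as for every ± value here) with overlapping groups. Its log2 fold change was -0.61 (unblocked adjusted p = 0.253, blocked adjusted p = 0.0139). A value per gene cannot tell the circular from the linear RNA, so the loss of cDCBLD2 was not measured here. KRT8 and KRT18, keratins of liver epithelium, were at 1800.0 TPM or more in every library and HNF4A at 29.1 and 23.4 TPM on average, while 4 of 7 hepatocyte and liver cancer markers (ALB, GPC3, APOA1 and TTR) had a mean under 1 TPM, as had EPCAM. The summed level of the 7 was 33.8 to 37.6 TPM after knockdown and 27.7 to 28.2 TPM in control cells, that of 5 epithelial markers 5862 to 7008 TPM and 4856 to 5659 TPM, and that of 3 mesenchymal markers 1684 to 2351 TPM and 1596 to 2085 TPM. HNF4A made up most of the sum of the 7, with a log2 fold change of 0.30 (unblocked adjusted p = 0.0949, blocked adjusted p = 0.0196). ALB went the other way, at 0.607 TPM after knockdown and 1.11 TPM in control cells on average. KRT8 and KRT18 made up most of the epithelial sum, at 0.32 and 0.26 (unblocked adjusted p = 0.126 and 0.197, blocked adjusted p = 0.00669 and 0.00954). Neither CDH1 nor KRT19 was called as deposited. Most of the mesenchymal sum was FN1, at 1492 to 2249 TPM over the libraries, with CDH2 at 71.7 to 81.8 TPM and VIM at 22.7 to 28.5 TPM. The summed level of 4 blood cell markers was 3.25 to 6.91 TPM after knockdown and 3.26 to 4.23 TPM in control cells, with CD3E at 0 throughout, and that of 4 stromal and endothelial markers was 8.03 to 18.6 TPM and 5.56 to 7.84 TPM. COL1A1 was 11.2 TPM in knockdown replicate 1 and between 1.13 and 3.64 TPM in the other 5 libraries. All 3 knockdown libraries lay above all 3 control libraries, with a log2 fold change of 1.06 (unblocked adjusted p = 0.196, blocked adjusted p = 0.0132). The part of these markers in the results below was not tested. In bulk libraries, fewer cells of a kind and less RNA per cell cannot be told apart.

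Without the block, limma called 0 of the 38 genes higher and 0 lower, where it called 0.250% of all genes tested higher and 0.629% lower. At an unadjusted p under 0.05 stood 12 of the 38, beside 3654 of all 13980 genes tested. With the block, 3 of the 38 (7.89%) were called higher and 13 (34.2%) lower, against 9.94% and 25.0% of all genes tested. The 3 higher genes were the glutathione peroxidases GPX1, GPX2 and GPX4. The 13 lower genes were SLC7A11, GCLC, NFE2L2, BACH1, TXNRD1, TXN, PGD, TKT, ME1, AKR1C1, AKR1C3, TFRC and ACSL4. The median log2 fold change of the 38 was -0.10, beside -0.08 over all genes tested. Every knockdown library lay above every control library in 4 of the 38 (10.5%) and below in 9 (23.7%), against 9.58% and 22.3% of all genes tested. The shares without overlap stood near those of all genes tested.

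Across all genes the log2 fold change went with the GC content of the transcript, and the 38 genes span a GC content from 35.2% to 65.2%. Spearman's rho was 0.642 over the 13161 genes with a known GC content and 0.716 over the 38, as a description over genes measured in the same libraries. When all genes were cut by GC content into 5 equal bins, the median log2 fold change was -0.40 in the lowest bin and 0.11 in the highest. The 13 genes lower with the block had a median GC content of 42.4%, and GPX1, GPX2 and GPX4 one of 64.2%. Once a smooth trend with GC content had been subtracted from every library (the GC-content offset), rho over the 38 was 0.0198, and with the block 9 of the 38 (23.7%) were called higher and 9 (23.7%) lower, against 11.7% and 12.9% of the genes with a known GC content. Whether the trend arose in the cells or in the making of the libraries was not tested.

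In 5 fits with the block (as deposited, upper-quartile scaling, the GC-content offset, a transcript-length offset, and limma-voom on the recovered reads), 3 of the 38 (7.89%) were called higher every time, namely GPX1, GPX2 and GPX4, against 6.10% of the genes present in all 5. The genes called lower every time were SLC7A11, GCLC, NFE2L2, BACH1, TXNRD1, TFRC and ACSL4, which are 7 of the 38 (18.4%) against 7.59%. Of the 16 calls with the block, those of GPX1, GCLC, ME1 and TFRC were kept when any 1 of the 3 same-numbered pairs was left out. Without pair 3 no other member was called. Without pair 2, GPX2, SLC7A11, NFE2L2, BACH1, TXNRD1 and ACSL4 were called as well. Without pair 1, all 16 were called, with SLC3A2 higher and GCLM, PRDX1, NCOA4 and CISD1 lower beside them.

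**Figure D1:**
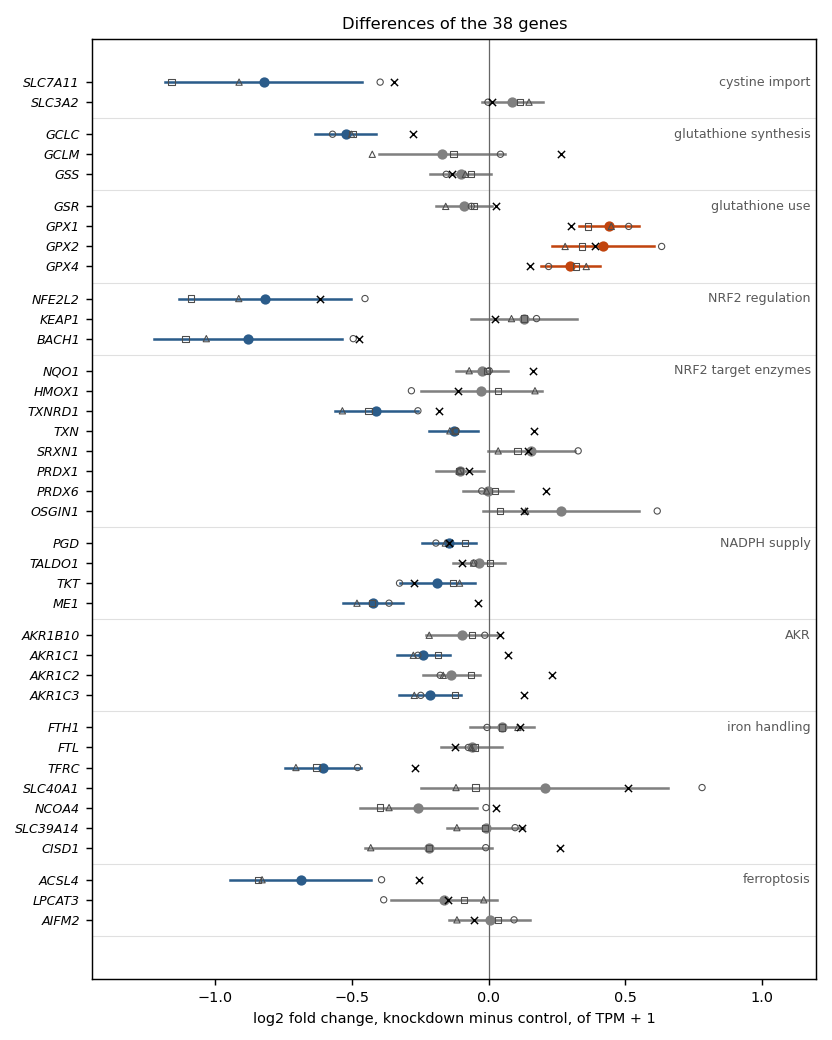
Log2 fold change of TPM + 1 (knockdown minus control) for the 38 genes, ordered by role. Dots and bars are the estimate and 95% interval of limma with the replicate block, blue where called lower and red where called higher; the circle, square and triangle are the differences within pairs 1, 2 and 3, and the cross is the estimate after the GC-content offset. GPX1, GPX2 and GPX4 are the 3 red genes, at 0.44, 0.42 and 0.30, and the blue genes reach down to -0.88 for BACH1, while the crosses of ME1 and TXN move to -0.04 and 0.17.

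Of the 2 subunits of the cystine exchanger, SLC7A11 was called lower with the block and SLC3A2 was not called. SLC7A11 (xCT; chr4:138164097-138242349, minus strand), the subunit that carries cystine in and glutamate out, read 54.2, 23.5 and 28.9 TPM with cDCBLD2 siRNA (replicates 1, 2 and 3, here and below) against 71.7, 53.9 and 55.4 TPM with control siRNA. On average it stood at 35.6 ± 16.4 TPM with cDCBLD2 siRNA and at 60.3 ± 9.90 TPM with control siRNA. The groups overlapped, since knockdown replicate 1 lay just above control replicate 2, but within each pair the knockdown library was the lower one. SLC7A11 had a log2 fold change of -0.82 (standard error, SE, 0.30, unblocked adjusted p = 0.152, blocked adjusted p = 0.0120). Without pair 3 the blocked adjusted p was 0.0748, and with the GC-content offset the log2 fold change was -0.35 (blocked adjusted p = 0.0386).

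SLC3A2 (4F2hc; chr11:62856102-62888875, plus strand) is the heavy chain that carries SLC7A11 to the membrane and serves other amino acid transporters too. It stood at 467, 547 and 555 TPM after knockdown and at 467, 505 and 501 TPM in control cells. Replicate 1 had nearly the same level in both groups, and replicates 2 and 3 were slightly higher after knockdown. A log2 fold change of 0.09 did not pass (unblocked adjusted p = 0.553, blocked adjusted p = 0.183), with a 95% interval in the blocked fit from -0.02 to 0.20. SLC3A2 is 1 of the 3 members with the fuller ARE printed above. With upper-quartile scaling or with limma-voom, and the block, SLC3A2 was called higher (adjusted p = 0.0180 and 0.0320).

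Of the 3 genes of glutathione synthesis, the catalytic subunit of the rate-limiting enzyme was called lower with the block. GCLC (chr6:53497341-53616970, minus strand), which joins glutamate to cysteine, was at 71.6, 58.4 and 62.5 TPM after knockdown and at 107, 82.9 and 88.9 TPM in control cells. No knockdown library reached a control library (p = 0.1 in an exact two-sided permutation test, below which 3 against 3 libraries cannot go). GCLC had a log2 fold change of -0.52 (SE 0.12, unblocked adjusted p = 0.0758), with -0.57, -0.50 and -0.50 in pairs 1, 2 and 3. The blocked adjusted p was 0.00437, and 0.0219 with the GC-content offset, which brought the log2 fold change to -0.28.

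GCLM (chr1:93885205-93909456, minus strand), the modifier subunit that makes GCLC more efficient, was not called as deposited. It was at 128, 86.3 and 77.3 TPM after knockdown and at 124, 94.4 and 104 TPM in control cells. The difference was 0.04 in pair 1 and -0.43 in pair 3 on the log2 scale. A log2 fold change of -0.17 did not pass (blocked adjusted p = 0.202), and with the GC-content offset it turned to 0.27 (blocked adjusted p = 0.0473). The ratio of GCLC to GCLM was 0.681 ± 0.125 after knockdown and 0.863 ± 0.0132 in control cells, and the groups did not overlap. GSS, which adds glycine to finish glutathione, was at 74.0 ± 3.13 TPM after knockdown and 79.6 ± 5.06 TPM in control cells and was not called (blocked adjusted p = 0.134).

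The 3 peroxidases that spend glutathione were called higher with the block. GPX1 (chr3:49357171-49358600, minus strand), the abundant cytosolic and mitochondrial peroxidase for hydrogen peroxide, was at 748, 565 and 577 TPM after knockdown and at 524, 439 and 422 TPM in control cells. All 3 knockdown libraries lay above all 3 control libraries, with a log2 fold change of 0.44 (SE 0.14, unblocked adjusted p = 0.117, blocked adjusted p = 0.00481). With the GC-content offset it was 0.30 (blocked adjusted p = 0.0139). GPX1 and TXN have processed copies elsewhere in the genome, and the handling of shared reads is not given in the sources used here.

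GPX2 (chr14:64939152-64942905, minus strand), a cytosolic peroxidase best known from the gut epithelium and a classical NRF2 target, was at 485, 361 and 339 TPM after knockdown and at 312, 285 and 279 TPM in control cells. The groups did not overlap, and the gap was widest in pair 1. Its log2 fold change was 0.42 (SE 0.14, unblocked adjusted p = 0.132, blocked adjusted p = 0.0128) and changed little with the GC-content offset, at 0.39 (blocked adjusted p = 0.0178). Without pair 3 the blocked adjusted p was 0.0549.

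GPX4 (chr19:1103926-1106791, plus strand), the peroxidase of membrane lipid hydroperoxides and the central brake on ferroptosis, was at 1553, 1892 and 1927 TPM after knockdown and at 1334, 1514 and 1503 TPM in control cells. The groups did not overlap, and in both of them replicate 1 was the lowest, the opposite of GPX1 and GPX2. GPX4 had a log2 fold change of 0.30 (SE 0.11, unblocked adjusted p = 0.146, blocked adjusted p = 0.00816), and 0.15 with the GC-content offset (blocked adjusted p = 0.0264). The blocked adjusted p was 0.0572 without pair 2 and 0.0746 without pair 3.

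Added up, GPX1, GPX2 and GPX4 gave 2816 ± 28.1 TPM after knockdown and 2204 ± 34.2 TPM in control cells. The sum varied far less between libraries than its parts did, because replicate 1 was high for GPX1 and GPX2 and low for GPX4. The sum, like the ratios given here, was chosen after the values had been seen and carries no test. No ratio was taken after the GC-content offset, and the share of other gene pairs whose ratio does not overlap was not computed. GSR, which returns oxidised glutathione to its reduced form with NADPH, was at 304 ± 26.4 TPM after knockdown and 324 ± 19.6 TPM in control cells and was not called (blocked adjusted p = 0.139). SLC7A11 per GPX4 was 0.0208 ± 0.0123 after knockdown and 0.0421 ± 0.0102 in control cells, without overlap. The 2 transcripts lie far apart in GC content, at 35.4% and 65.2%, and the part of the GC trend in this ratio was not tested.

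**Figure D2:**
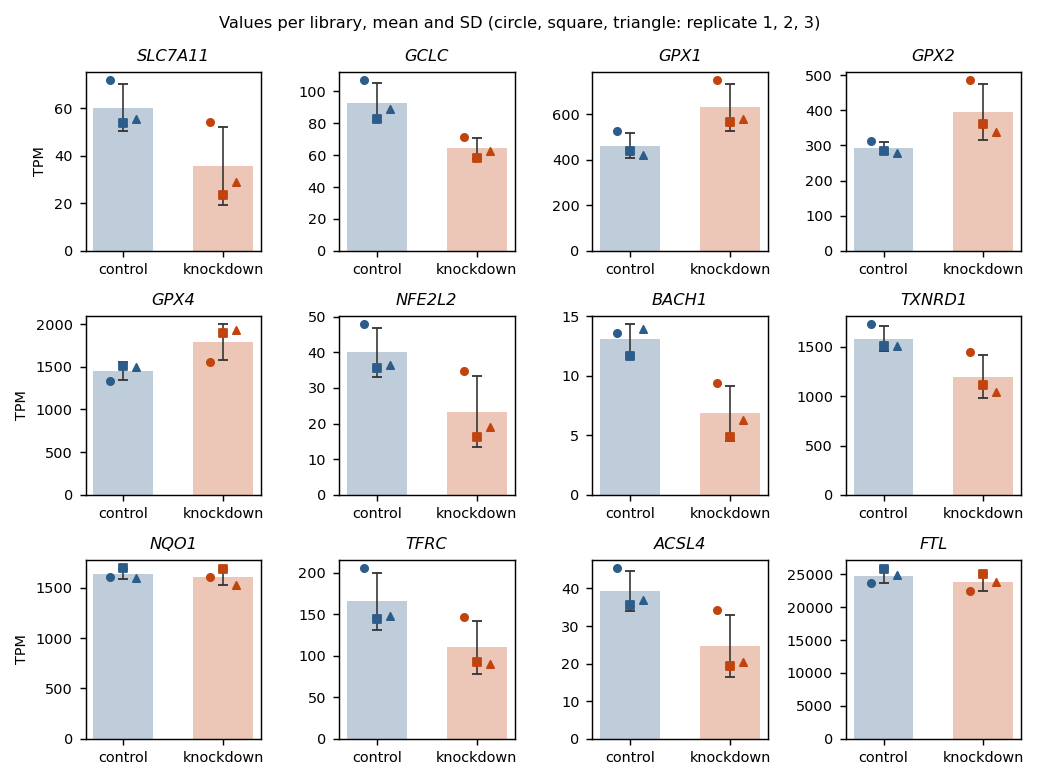
TPM of 12 of the genes in each library, on axes that start at 0; bars and error bars are the mean and SD of 3 libraries, and circles, squares and triangles are replicates 1, 2 and 3. GPX1, GPX2 and GPX4 sit higher in every knockdown library, GCLC, NFE2L2, BACH1, TXNRD1 and ACSL4 sit lower in every one, SLC7A11 and TFRC overlap through replicate 1, and NQO1 and FTL show no separation.

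Among the regulators, the mRNAs of NRF2 and of BACH1, its competitor on the ARE, were both called lower with the block. NFE2L2 (chr2:177227595-177392697, minus strand), which encodes NRF2, was at 34.7, 16.2 and 18.9 TPM after knockdown and at 47.8, 35.6 and 36.5 TPM in control cells. The groups did not overlap, although knockdown replicate 1 came close to control replicate 2. NFE2L2 had a log2 fold change of -0.82 (SE 0.28, unblocked adjusted p = 0.137, blocked adjusted p = 0.00913), and -0.62 with the GC-content offset (blocked adjusted p = 0.0146). Without pair 3 the blocked adjusted p was 0.0640. The mRNA says nothing of NRF2 protein, whose amount is set mainly by its breakdown.

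BACH1 (chr21:29194071-29630751, plus strand), a repressor that occupies AREs until haem removes it, was at 9.35, 4.87 and 6.32 TPM after knockdown and at 13.6, 11.7 and 13.97 TPM in control cells. All 3 knockdown libraries were lower, and it had the lowest log2 fold change of the 38 genes, -0.88 (SE 0.21, unblocked adjusted p = 0.0824, blocked adjusted p = 0.00949). With the GC-content offset it was -0.47 (blocked adjusted p = 0.0197), and without pair 3 the blocked adjusted p was 0.0690. BACH1 per NFE2L2 was 0.301 ± 0.0322 after knockdown and 0.331 ± 0.0493 in control cells, with overlapping groups.

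KEAP1 (chr19:10486120-10503741, minus strand), the sensor that captures NRF2, was at 9.13, 7.87 and 8.44 TPM after knockdown and at 7.97, 7.11 and 7.91 TPM in control cells. The groups overlapped, and the log2 fold change of 0.13 did not pass (blocked adjusted p = 0.243). It rested on 163 to 225 recovered reads per library, the fewest of the 38 genes. NFE2L2 per KEAP1 was 2.70 ± 0.956 after knockdown and 5.21 ± 0.712 in control cells, without overlap. Their GC contents are 45.6% and 60.3%, and the part of the GC trend in this ratio was not tested either.

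Of the 8 enzymes usually read as the output of NRF2, 2 (25.0%) were called lower with the block (TXNRD1 and TXN) and 0 higher. The shares of all genes tested were 25.0% and 9.94%, so the share lower was that of all genes. With the GC-content offset and the block 1 (12.5%) was lower and 3 (37.5%) were higher, against 12.9% and 11.7%. NQO1 (chr16:69706996-69726951, minus strand), the quinone reductase used most often as an NRF2 readout, was at 1612, 1687 and 1526 TPM after knockdown and at 1609.7, 1694 and 1603 TPM in control cells. Its log2 fold change was -0.03 with a 95% interval in the blocked fit from -0.12 to 0.07 (blocked adjusted p = 0.640). The values rested on at least 27375 recovered reads in every library. With the GC-content offset it was at 0.16 (blocked adjusted p = 0.0248).

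HMOX1 (chr22:35380361-35394214, plus strand), which breaks down haem and is a target of both BACH1 and NRF2, was at 177, 229.7 and 255 TPM after knockdown and at 216, 224 and 227 TPM in control cells. Knockdown was the lower one in pair 1 and the higher one in pair 3. HMOX1 had a log2 fold change of -0.03 (blocked adjusted p = 0.837), and without knockdown replicate 1 it was 0.12.

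TXNRD1 (chr12:104215779-104350305, plus strand), the cytosolic selenoenzyme that reduces thioredoxin with NADPH, was at 1445, 1116 and 1040.2 TPM after knockdown and at 1729, 1514 and 1508 TPM in control cells. Each knockdown library was below each control library, with a log2 fold change of -0.41 (SE 0.14, unblocked adjusted p = 0.129, blocked adjusted p = 0.00842), and -0.18 with the GC-content offset (blocked adjusted p = 0.0268). Without pair 3 the blocked adjusted p was 0.0621. TXN, its substrate, was at 1420.2 ± 207 TPM after knockdown and 1551 ± 217 TPM in control cells. The spread between replicates was wider than the difference, and the pairs gave -0.12, -0.12 and -0.14 (log2 fold change -0.13, blocked adjusted p = 0.0415). TXN lost the call without pair 2 (blocked adjusted p = 0.230) or pair 3 (0.245) and was called higher with the GC-content offset at 0.17 (blocked adjusted p = 0.0429).

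The other 4 of these enzymes, like NQO1 and HMOX1, were not called as deposited. OSGIN1, an NRF2-induced growth inhibitor, was at 176, 147 and 145 TPM after knockdown and at 115, 143 and 132 TPM in control cells. All 3 knockdown libraries were above the control libraries, with most of the gap in pair 1, and the log2 fold change of 0.27 did not pass (unblocked adjusted p = 0.199, blocked adjusted p = 0.127). With limma-voom and the block OSGIN1 was called higher, at 0.36 (adjusted p = 0.0148). SRXN1, which repairs over-oxidised peroxiredoxins, had a log2 fold change of 0.16 (blocked adjusted p = 0.113), and it was called higher at 0.26 with upper-quartile scaling and at 0.25 with limma-voom, both with the block (adjusted p = 0.0450 and 0.00871). PRDX1 and PRDX6, peroxiredoxins of the cytosol, had log2 fold changes of -0.11 and -0.0033 (blocked adjusted p = 0.0664 and 0.951). PRDX6 was called higher with the GC-content offset at 0.21 (blocked adjusted p = 0.0242).

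NADPH pays for both the glutathione and the thioredoxin cycle, and 3 of 4 genes of its supply were lower with the block, where 25.0% of all genes tested were. The count was 2 of 4 with the GC-content offset and the block, and with upper-quartile scaling or limma-voom and the block it was 1 of 4. Over all genes these 3 fits called 12.9%, 15.3% and 22.2% lower. ME1 (chr6:83210389-83431071, minus strand), the cytosolic malic enzyme, was at 121, 95.4 and 95.9 TPM after knockdown and at 156, 129 and 134 TPM in control cells. The groups did not overlap, and the log2 fold change was -0.42 (SE 0.12, unblocked adjusted p = 0.102, blocked adjusted p = 0.00503). ME1 has one of the lower GC contents of the list, 39.5%, and with the GC-content offset it was at -0.04 (blocked adjusted p = 0.574).

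PGD, which makes NADPH in the pentose phosphate pathway, was at 941 ± 43.5 TPM after knockdown and 1040.1 ± 18.4 TPM in control cells, without overlap (log2 fold change -0.15, blocked adjusted p = 0.0398). TKT, a transketolase of the same pathway, was at 1175 ± 197 TPM and 1328 ± 124 TPM (log2 fold change -0.19, blocked adjusted p = 0.0474), and TALDO1, the transaldolase, at 1794 ± 93.9 TPM and 1838 ± 95.4 TPM (log2 fold change -0.03, blocked adjusted p = 0.510). The calls of PGD and TKT were lost without pair 2 (blocked adjusted p = 0.125 for both) or pair 3 (0.211 and 0.119). With limma-voom and the block neither was called (adjusted p = 0.512 and 0.304).

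The 4 aldo-keto reductases, which reduce aldehydes and ketones left by lipid peroxidation, all had a negative log2 fold change as deposited. With upper-quartile scaling AKR1B10 moved to 0.0050. AKR1B10, an HCC-associated reductase, was at 2581 ± 348 TPM after knockdown and 2748 ± 185 TPM in control cells and was not called (blocked adjusted p = 0.1996). AKR1C1 and AKR1C3 were called lower with the block, with log2 fold changes of -0.24 and -0.21 (blocked adjusted p = 0.0102 and 0.0188). AKR1C2, at -0.14, was not (blocked adjusted p = 0.0547), although its groups did not overlap. Without pair 2 the blocked adjusted p of AKR1C1 was 0.0517 and that of AKR1C3 was 0.0575, and without pair 3 they were 0.0873 and 0.138. With the GC-content offset AKR1C1, AKR1C2 and AKR1C3 turned to 0.07, 0.23 and 0.13, and none was called. AKR1C1 and AKR1C2 are near-identical neighbours on chromosome 10, so the split of reads between them is uncertain. The sum of the 3 AKR1C genes was 2136 ± 247 TPM after knockdown and 2469 ± 196 TPM in control cells. TPM is a level per length, so this sum can also shift with the split of reads.

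Iron handling held the highest mRNAs of the list. FTL, the light chain of ferritin, was at 22458, 24958 and 23823 TPM after knockdown and at 23643, 25828 and 24884 TPM in control cells, the highest mean of all genes tested. FTH1, the heavy chain with the ferroxidase site, was at 14639, 16254 and 16574 TPM after knockdown and at 14697, 15698 and 15385 TPM in control cells, the third highest. Together they made up 3.71% to 4.15% of all TPM in a library, out of 5.73% to 6.20% for the 38 genes. Neither chain was called (log2 fold change -0.06 for FTL and 0.05 for FTH1, blocked adjusted p = 0.323 and 0.437). With upper-quartile scaling and the block FTH1 was called higher, at 0.15 (adjusted p = 0.0255). Both have many processed copies in the genome, so their levels are uncertain. FTH1 per FTL was 0.666 ± 0.0255 after knockdown and 0.616 ± 0.00723 in control cells, without overlap.

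**Figure D3:**
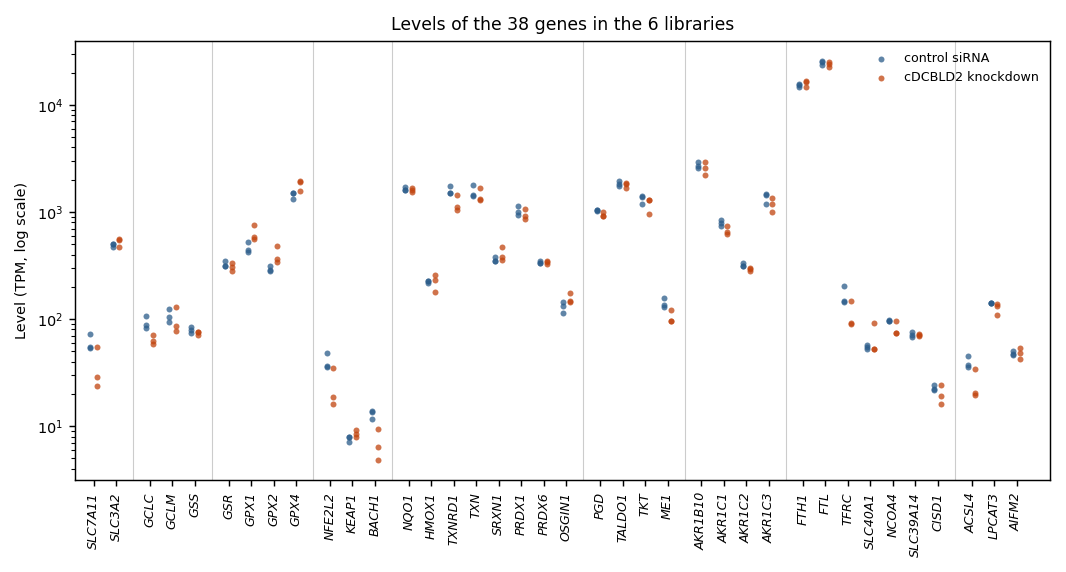
Level of each of the 38 genes in each library, in TPM on a log axis, with the roles separated by vertical lines. FTL and FTH1 stand highest, at 14639 TPM or more in every library, and the regulators NFE2L2, KEAP1 and BACH1 are among the lowest, between 4.87 and 47.8 TPM.

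TFRC (chr3:196027183-196082189, minus strand), the transferrin receptor that takes up iron, has the 4 matches to the IRE pattern shown above in its 3′ UTR. It was at 147, 92.4 and 90.5 TPM after knockdown and at 205, 144 and 148 TPM in control cells. Knockdown replicate 1 lay between control replicates 2 and 3, so the groups overlapped, but knockdown was the lower one in each pair, at -0.48, -0.63 and -0.71 on the log2 scale. TFRC had a log2 fold change of -0.60 (SE 0.22, unblocked adjusted p = 0.156, blocked adjusted p = 0.00444), and -0.27 with the GC-content offset (blocked adjusted p = 0.0103).

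SLC40A1 (ferroportin; chr2:189560579-189583758, minus strand), the exporter of iron, was at 91.4, 52.5 and 53.0 TPM after knockdown and at 52.8, 54.3 and 57.7 TPM in control cells. Knockdown replicate 1 alone was high, and the other 5 libraries lay between 52.5 and 57.7 TPM. A log2 fold change of 0.20 did not pass (blocked adjusted p = 0.414), and without knockdown replicate 1 it was -0.06. With the GC-content offset it was 0.51 (blocked adjusted p = 0.0490). TFRC per SLC40A1, import over export, was 1.69 ± 0.0789 after knockdown and 3.03 ± 0.739 in control cells, without overlap. In knockdown replicate 1 the ratio was 1.60, and its separation from the control libraries rests on that 1 high SLC40A1 value.

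NCOA4, the receptor that sends ferritin to autophagy, was at 95.6, 73.3 and 73.5 TPM after knockdown and at 96.2, 97.0 and 94.9 TPM in control cells. The difference was -0.01 in pair 1, -0.40 in pair 2 and -0.36 in pair 3, and the log2 fold change of -0.26 did not pass (unblocked adjusted p = 0.207, blocked adjusted p = 0.0672). Without knockdown replicate 1 it was -0.38 (unblocked adjusted p = 0.0155), and with the GC-content offset 0.03. SLC39A14 (ZIP14), an importer of free iron, was at 70.7 ± 1.87 TPM after knockdown and 71.3 ± 3.55 TPM in control cells and was not called (blocked adjusted p = 0.898). With the length offset and the block SLC39A14 was called higher, at 0.18 (adjusted p = 0.0490). CISD1, an iron-sulfur protein of the outer mitochondrial membrane, was at 19.7 ± 4.14 TPM and 22.8 ± 1.33 TPM (log2 fold change -0.22, blocked adjusted p = 0.121), and with the GC-content offset it turned to 0.26 (blocked adjusted p = 0.0489).

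Of the 3 regulators of ferroptosis outside the glutathione axis, 1 was called lower with the block, where 25.0% of all genes tested were. ACSL4 (chrX:109624244-109733403, minus strand), which loads arachidonate and adrenate for the phospholipids that peroxidise in ferroptosis, was at 34.3, 19.4 and 20.3 TPM after knockdown and at 45.3, 35.6 and 36.9 TPM in control cells. The groups did not overlap, and the log2 fold change was -0.69 (SE 0.23, unblocked adjusted p = 0.128, blocked adjusted p = 0.00873), -0.25 with the GC-content offset (blocked adjusted p = 0.0321), and the blocked adjusted p without pair 3 was 0.0621. LPCAT3, which puts these fatty acids into phospholipids, was at 108, 134 and 139 TPM after knockdown and at 141, 142 and 141 TPM in control cells, all 3 lower, and mainly in pair 1 (log2 fold change -0.16, blocked adjusted p = 0.156). AIFM2 (FSP1; chr10:70098223-70132934, minus strand), which protects membranes through reduced coenzyme Q without glutathione, was at 54.0, 48.6 and 42.6 TPM after knockdown and at 50.5, 47.4 and 46.2 TPM in control cells. Its log2 fold change was 0.0037 with a 95% interval in the blocked fit from -0.14 to 0.15, and of the 3 genes with the fuller ARE, SLC3A2 and AIFM2 were not called and ME1 was lower with the block.

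The wider pathways were read from 97 other genes in 4 lists, 85 of them tested. Without the block 0 were called higher and 2 lower, UGDH and DHCR7. With the block 11 (12.9%) were higher and 23 (27.1%) lower, near the 9.94% and 25.0% of all genes tested. After the GC-content offset, the block gave 19 (22.4%) higher and 9 (10.6%) lower, against 11.7% and 12.9%. UGDH, an NRF2-responsive maker of glucuronate, was at 426 ± 22.9 TPM after knockdown and 656 ± 9.89 TPM in control cells (log2 fold change -0.62, unblocked adjusted p = 0.0444, blocked adjusted p = 0.00436). DHCR7, which uses up the protective sterol 7-dehydrocholesterol to make cholesterol, was at 141 ± 5.89 TPM and 197 ± 8.98 TPM (log2 fold change -0.48, unblocked adjusted p = 0.0451, blocked adjusted p = 0.00579). UGDH was at -0.27 with the GC-content offset (unblocked adjusted p = 0.236, blocked adjusted p = 0.0200) and DHCR7 at -0.57 (0.0532 and 0.00519), so that both were called only with the block.

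Of 23 other glutathione genes, 2 (8.70%) were higher and 5 (21.7%) lower with the block, near the 9.94% and 25.0% of all genes tested. With the GC-content offset and the block 6 (26.1%) were higher and 0 lower, against 11.7% and 12.9%. GPX3, the secreted peroxidase, was the highest at a log2 fold change of 0.55 (blocked adjusted p = 0.00674), followed by CHAC1, which degrades glutathione, at 0.39 (0.106). MGST1, a microsomal glutathione transferase, was the lowest at -0.40 (blocked adjusted p = 0.0107), followed by GGCT of the glutamyl cycle at -0.38 (0.00653), and with the GC-content offset neither was called (0.2001 and 0.214). Of 27 other NRF2 targets and partners, 5 (18.5%) were higher and 6 (22.2%) lower with the block. With the GC-content offset and the block 5 (18.5%) were higher and 3 (11.1%) lower, against the same 11.7% and 12.9%. TXNIP, the thioredoxin inhibitor, was at 0.47 (blocked adjusted p = 0.133) and was called with the GC-content offset at 0.73 (0.0332), and SESN2, a stress-induced sestrin, at 0.46 (0.0125). Beside UGDH, CUL3, the scaffold of the ligase that KEAP1 serves, was the lowest at -0.50 (blocked adjusted p = 0.0240), and it was at -0.07 with the GC-content offset (0.462).

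Of 14 other iron genes, 1 (7.14%) was higher and 5 (35.7%) lower with the block, against 9.94% and 25.0% of all genes tested. With the GC-content offset and the block 3 (21.4%) were higher and 2 (14.3%) lower, against 11.7% and 12.9%. STEAP3, the endosomal ferrireductase, was higher at a log2 fold change of 0.25 (blocked adjusted p = 0.0222), and HSPB1 was at 0.11 (0.119). IREB2, which encodes the iron regulatory protein IRP2, one of the proteins that bind IREs, was lower at -0.68 (blocked adjusted p = 0.00787), from 11.7 ± 2.06 TPM in control cells to 7.06 ± 2.30 TPM. ISCU, the scaffold of iron-sulfur clusters, was lower at -0.31 (blocked adjusted p = 0.0104). IREB2 was at -0.27 with the GC-content offset (blocked adjusted p = 0.0376), and ISCU, then at -0.12, was not called (0.0760). Of 21 other ferroptosis genes, 3 (14.3%) were higher and 7 (33.3%) lower with the block, and with the GC-content offset and the block 5 were higher and 4 lower. ALOX5, a lipoxygenase, was higher at 0.68 (blocked adjusted p = 0.0132), and ATF3 was at 0.37 (0.0544), called with the GC-content offset at 0.42 (0.0332). SLC38A1, a glutamine transporter, was the lowest of all 85 at -0.93 (blocked adjusted p = 0.00503), followed by ACSL3, which activates monounsaturated fatty acids, at -0.67 (0.00436).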

How the data were processed

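For 6 PolyA-Seq libraries of HCCLM3-SR cells (cDCBLD2 siRNA or control siRNA, 3 each), the authors deposited a TPM value per gene. The submitters' processing notes name fastp 0.20.1, HISAT2 2.1.0, StringTie 2.0 and the build hg38. The annotation and the multimapping and strand settings are not given in the sources used here. The study names DESeq2 for its own test, which was not used here because the values are not counts.

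The 38 genes, their roles and the other gene lists were chosen with earlier results of these data known. The 13980 genes at or above 1 TPM on average were tested on log2(TPM + 1) with limma 3.58.1 in R 4.3.3, with a mean-variance trend, Benjamini-Hochberg adjustment over all of them and no block, and fold changes of low genes are understated on this scale. Every adjusted p in the text comes from limma. Same-numbered libraries, paired by the number in the sample titles, had correlations of their deviations of 0.5598, 0.343 and 0.3621. Those of knockdown 3 with control 2 and knockdown 2 with control 3 were 0.2473 and 0.2145. A fit with the replicate number as a block is given beside the first fit. What the numbers mark is not given in the titles. Reads were worked back from how a gene's TPM compare across libraries, and 100% of 17285 genes came out whole (within 0.001 reads), against 0% of 1729 with library factors moved at random by up to 10%. Limma-voom used genes with at least 10 recovered reads in 3 libraries. The GC-content and length offsets were loess trends with a span of 0.5. Positions, GC content and UTRs came from GENCODE 29, in which 25655 genes matched by symbol and 1546 through older names, and promoters from RefSeq (GRCh38.p14). These may not be the authors' annotation. The values of every library are given for named nodes of the pathways and for the 10 largest changes, and for each other list the 2 highest and 2 lowest log2 fold changes. OSGIN1, NCOA4 and LPCAT3 were also given so, after their values were seen. The fits were tested on simulated data. Scripts ran in Python 3.11.15.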

Additional observations from a re-analysis of the deposited data

How the results depend on the processing

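Without the block, limma called 0 of the 38 genes higher and 0 lower with upper-quartile scaling, with no filter on low values, with a pseudocount of 0.1, with the GC-content offset and with limma-voom on the recovered reads (11 to 13 of them were at an unadjusted p under 0.05). Over all genes, in the same order, 3477 of 13978, 4160 of 25278, 3645 of 13980, 2760 of 13161 and 3981 of 15018 were at an unadjusted p under 0.05. Adding the replicate block, which pairs libraries by number, gave 3 higher and 13 lower. The block with upper-quartile scaling, a fit chosen after seeing the data, gave 6 higher and 9 lower. With the GC-content offset the block gave 9 and 9, with the length offset 4 and 10, and with limma-voom 6 and 9. Over all genes, the block alone called 1390 higher and 3501 lower of 13980. With upper-quartile scaling it called 2290 and 2135 of 13978, and with the GC-content offset 1538 and 1703 of 13161. With the length offset these counts were 2293 and 2227 of 13980, and with limma-voom 2627 and 3081 of 15018. With the block but without replicate 1 of both groups, 4 were higher and 17 lower, 3 were also past a log2 fold change of 1 in size, and 30 had groups that did not overlap. Of the 13920 genes tested in that fit, 1643 were higher and 3982 lower. The share of all genes without overlap was not computed there, and groups of 2 libraries separate more easily than groups of 3. Without replicate 2 the block gave 2 and 8 (480 and 1236 of 14030 genes tested), and without replicate 3 it gave 1 and 3 (157 and 330 of 13969). The median log2 fold change of the 38 genes was -0.0022 with upper-quartile scaling, with or without the block, 0.025 with the GC-content offset, -0.047 with the length offset, and -0.0053 with limma-voom or -0.0057 with its block.

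With 1 library left out and no block, the counts ranged from 0 to 1 higher, from 0 to 9 lower and from 0 to 3 past both thresholds, between 14 and 24 genes had groups that did not overlap, and the median lay between -0.15 and -0.051. The upper ends of the counts came without knockdown replicate 1, and the other 5 fits called 0 genes (5 to 10 at an unadjusted p under 0.05). In these 5 fits, 2156 to 2796 of all 13955 to 14027 genes tested were at an unadjusted p under 0.05. Without knockdown replicate 1, 643 of all 13950 genes tested were called higher and 2767 lower. The share of all genes without overlap was not computed for these fits.

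Some genes changed sign under some settings, and the cause was not tested. Among them were TXN, AKR1C1 and AKR1C3, which were called lower with the block as deposited and turned positive with the GC-content offset. With upper-quartile scaling these were GSR 0.011, NQO1 0.077, HMOX1 0.075, PRDX6 0.099, TALDO1 0.068, AKR1B10 0.0050, FTL 0.040 and SLC39A14 0.090. With the GC-content offset they were GCLM 0.27, GSR 0.029, NQO1 0.16, TXN 0.17, PRDX6 0.21, AKR1B10 0.043, AKR1C1 0.070, AKR1C2 0.23, AKR1C3 0.13, NCOA4 0.027, SLC39A14 0.12, CISD1 0.26 and AIFM2 -0.053. With limma-voom, and with its block where a further value is given, they were GSR 0.0069 (0.0070), NQO1 0.073, HMOX1 0.075 (0.079), PRDX6 0.095, TALDO1 0.063 (0.064), AKR1B10 0.0012 (0.0011), FTL 0.036 and SLC39A14 0.087. With the length offset they were GCLM 0.019, NQO1 0.0086, PRDX6 0.0036 and SLC39A14 0.18. With the block, HMOX1 was at 0.10, PRDX6 at 0.0076, SLC40A1 at -0.083 and AIFM2 at -0.041 without replicate 1, AIFM2 at -0.011 without replicate 2, and SLC39A14 at 0.042 without replicate 3. With 1 library left out, the log2 fold change ran from -0.060 to 0.012 for NQO1, -0.14 to 0.12 for HMOX1, -0.021 to 0.022 for PRDX6, -0.067 to 0.0082 for TALDO1, -0.19 to 0.0056 for AKR1B10, -0.056 to 0.34 for SLC40A1, -0.044 to 0.027 for SLC39A14 and -0.077 to 0.091 for AIFM2. The genes called in all 5 fits with the block kept their sign in every fit.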
